A study of Mus musculus with 14 samples.

Results

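The 39 protein-coding mouse genes whose symbols are Hoxa, Hoxb, Hoxc or Hoxd with a number were examined, out of 21883 protein-coding genes in the annotation. The rule is the symbol and uses no measured value, but the family was chosen for description with earlier results of these data known. They lie in 4 clusters, with 11 Hoxa, 10 Hoxb, 9 Hoxc and 9 Hoxd genes. Each cluster was treated as 1 window from its first to its last Hox gene plus 5 kb on both sides. In mm10 coordinates the windows are chr6:52150367-52265880 for Hoxa, chr11:96189316-96373254 for Hoxb, chr15:102916131-103041856 for Hoxc and chr2:74663225-74770142 for Hoxd, 532 kb in all.

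The series profiled livers in which doxycycline induces a YAP transgene (YAP) and wild-type livers (WT), all C57BL/6, by chromatin immunoprecipitation and sequencing with antibodies against LSD1, H3K4me2 and H3K4me1. YAP is a co-activator of transcription held back by Hippo signalling. H3K4me1 and H3K4me2 are histone H3 with 1 or 2 methyl groups on lysine 4, which the demethylase LSD1, the product of Kdm1a, can remove. The labels give doxycycline in drinking water at 50 mg/L for 10 days on every sample, WT included, and this entry was taken as given. The promoter that drives the transgene, and age and sex, are not in the labels. With 3 antibodies, 2 replicates of each per genotype and 1 input for YAP and for WT, there were 14 libraries in 8 groups. The values were 6 lists of enriched regions, 1 per antibody and genotype, each drawn from both replicates together. No spread between replicates could therefore be computed, no test was made, and the read depth is unknown. The H3K4me2 lists held 51676 regions in YAP and 54219 in WT and covered 49.0 Mb and 52.2 Mb. The 10 hepatocyte marker genes examined, among them Alb and Hnf4a, all had H3K4me2 regions in both lists.

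Hox genes encode homeodomain transcription factors that set position along the anterior-posterior axis of the embryo. Their order along a chromosome follows the order in which they are used along the body, and genes with the same number in different clusters are paralogs. Trithorax proteins keep the clusters active through methylation of H3K4, Polycomb proteins keep them silent through methylation of H3K27, and adult tissues retain part of the pattern of their embryonic origin.

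The clusters also hold 6 miRNA genes, and the miR-10 and miR-196 families are known to target Hox transcripts. Mature sequences from RefSeq (GRCm38.p6, whose coordinates are those of mm10) are shown because 1 of these genes carried H3K4me2; the seed, bases 2 to 8 from the 5′ end, is in capitals.
mmu-miR-10a-5p: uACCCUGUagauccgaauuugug
mmu-miR-10b-5p: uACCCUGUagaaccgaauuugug
mmu-miR-196a-5p: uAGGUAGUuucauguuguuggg
mmu-miR-196b-5p: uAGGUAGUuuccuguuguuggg
mmu-miR-615-3p: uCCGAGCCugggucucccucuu
The miR-10 pair shares a seed and differs by U12A (miR-10a base first, counted from the 5′ end). The miR-196 pair shares another seed and differs by A12C (miR-196a base first), and miR-615 has a seed of its own. Mir10a lies below Hoxb4 in the Hoxb cluster, with its mature sequence at chr11:96317186-96317208, and Mir10b lies in Hoxd at chr2:74726074-74726096. Mir196b lies in Hoxa at chr6:52230129-52230150, Mir196a-1 in Hoxb at chr11:96265187-96265208, and Mir196a-2 and Mir615 in Hoxc at chr15:102973365-102973386 and chr15:103014969-103014990.

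Promoter sequences, the 250 bases before an annotated start, are shown for the 4 Hox promoters that overlapped an H3K4me2 region. They come from RefSeq on the same build, read 5′ to 3′ in the direction of the gene. Capitals mark a match to TGATNNAT or AGGTCA on either strand, letters that HOX-PBX pairs and nuclear receptors are known to prefer.
Hoxa2, chr6:52164832-52165081, minus strand: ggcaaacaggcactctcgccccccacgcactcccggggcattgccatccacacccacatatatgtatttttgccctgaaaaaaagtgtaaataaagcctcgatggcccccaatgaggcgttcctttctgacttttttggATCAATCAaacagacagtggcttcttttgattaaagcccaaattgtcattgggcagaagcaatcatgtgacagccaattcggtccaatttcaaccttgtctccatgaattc
Hoxa3, chr6:52213068-52213317, minus strand: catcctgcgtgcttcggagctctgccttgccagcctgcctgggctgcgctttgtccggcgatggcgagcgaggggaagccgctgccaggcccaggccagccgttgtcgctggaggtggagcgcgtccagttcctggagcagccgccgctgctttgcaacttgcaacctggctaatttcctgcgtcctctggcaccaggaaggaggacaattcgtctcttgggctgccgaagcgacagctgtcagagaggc
Hoxb4, chr11:96318017-96318266, plus strand: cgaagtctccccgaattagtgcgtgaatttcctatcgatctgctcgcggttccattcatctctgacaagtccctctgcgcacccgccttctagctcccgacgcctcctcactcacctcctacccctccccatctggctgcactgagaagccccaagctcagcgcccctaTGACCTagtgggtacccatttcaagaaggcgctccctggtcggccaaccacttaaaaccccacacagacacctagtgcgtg
Hoxd8, chr2:74704365-74704614, plus strand: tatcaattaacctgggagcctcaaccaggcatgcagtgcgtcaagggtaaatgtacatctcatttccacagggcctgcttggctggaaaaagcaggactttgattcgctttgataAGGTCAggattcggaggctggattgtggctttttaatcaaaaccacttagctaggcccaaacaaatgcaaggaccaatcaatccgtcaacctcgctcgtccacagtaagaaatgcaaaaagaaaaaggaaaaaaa
Of the 250 bases, Hoxa2 had 143 inside an H3K4me2 region in YAP and 250 in WT, and Hoxa3 had 250 in YAP and 236 in WT. The Hoxb4 promoter had 0 covered bases in YAP and 250 in WT, and the Hoxd8 promoter 0 in YAP and 187 in WT. The table held 24 promoters of 22 Hox genes. They had a median of 12.5 CpG dinucleotides, against 6 over all 32851 promoters, and 19 of the 24 were above that median. The HOX-PBX letters occurred in 4 of the 24 (Hoxa2, Hoxb1, Hoxb8 and Hoxd11), where 7.68% of all promoters held them. The nuclear receptor letters AGGTCA occurred in 6 (Hoxb4, Hoxc4, Hoxd3, Hoxd4, Hoxd8 and Hoxd10), against 14.0% of all promoters, and GGAATG, the letters bound by the TEAD partners of YAP, in 1 (Hoxa9), against 12.6%. Both strands were searched, no motif is contained in another, and a match describes the sequence, not a bound site.

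H3K4me2 covered fewer bases in the Hox windows in YAP livers than in WT livers, and the difference lay in the Hoxa and Hoxb clusters. Over all 4 windows the YAP list held 26 regions and 10.1 kb (1.90% of the windows), against 38 regions and 25.9 kb (4.86%) in the WT list, a ratio of 0.39. Hoxa and Hoxb together held 89.0% of the covered bases in YAP and 95.1% in WT. The Hoxa window had 15 regions and 5.97 kb in YAP, against 20 regions and 14.4 kb in WT, a ratio of 0.414. The Hoxb window had 8 regions and 3.02 kb in YAP, against 15 regions and 10.2 kb in WT, a ratio of 0.297. Hoxc and Hoxd were nearly empty in both genotypes. Hoxc had 2 regions and 0.599 kb in YAP, against 1 region and 0.615 kb in WT. Hoxd had 1 region and 0.516 kb in YAP, against 2 regions and 0.657 kb in WT. In bulk liver, fewer cells that carry a mark and less of the mark per cell cannot be told apart.

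**Figure D1:**
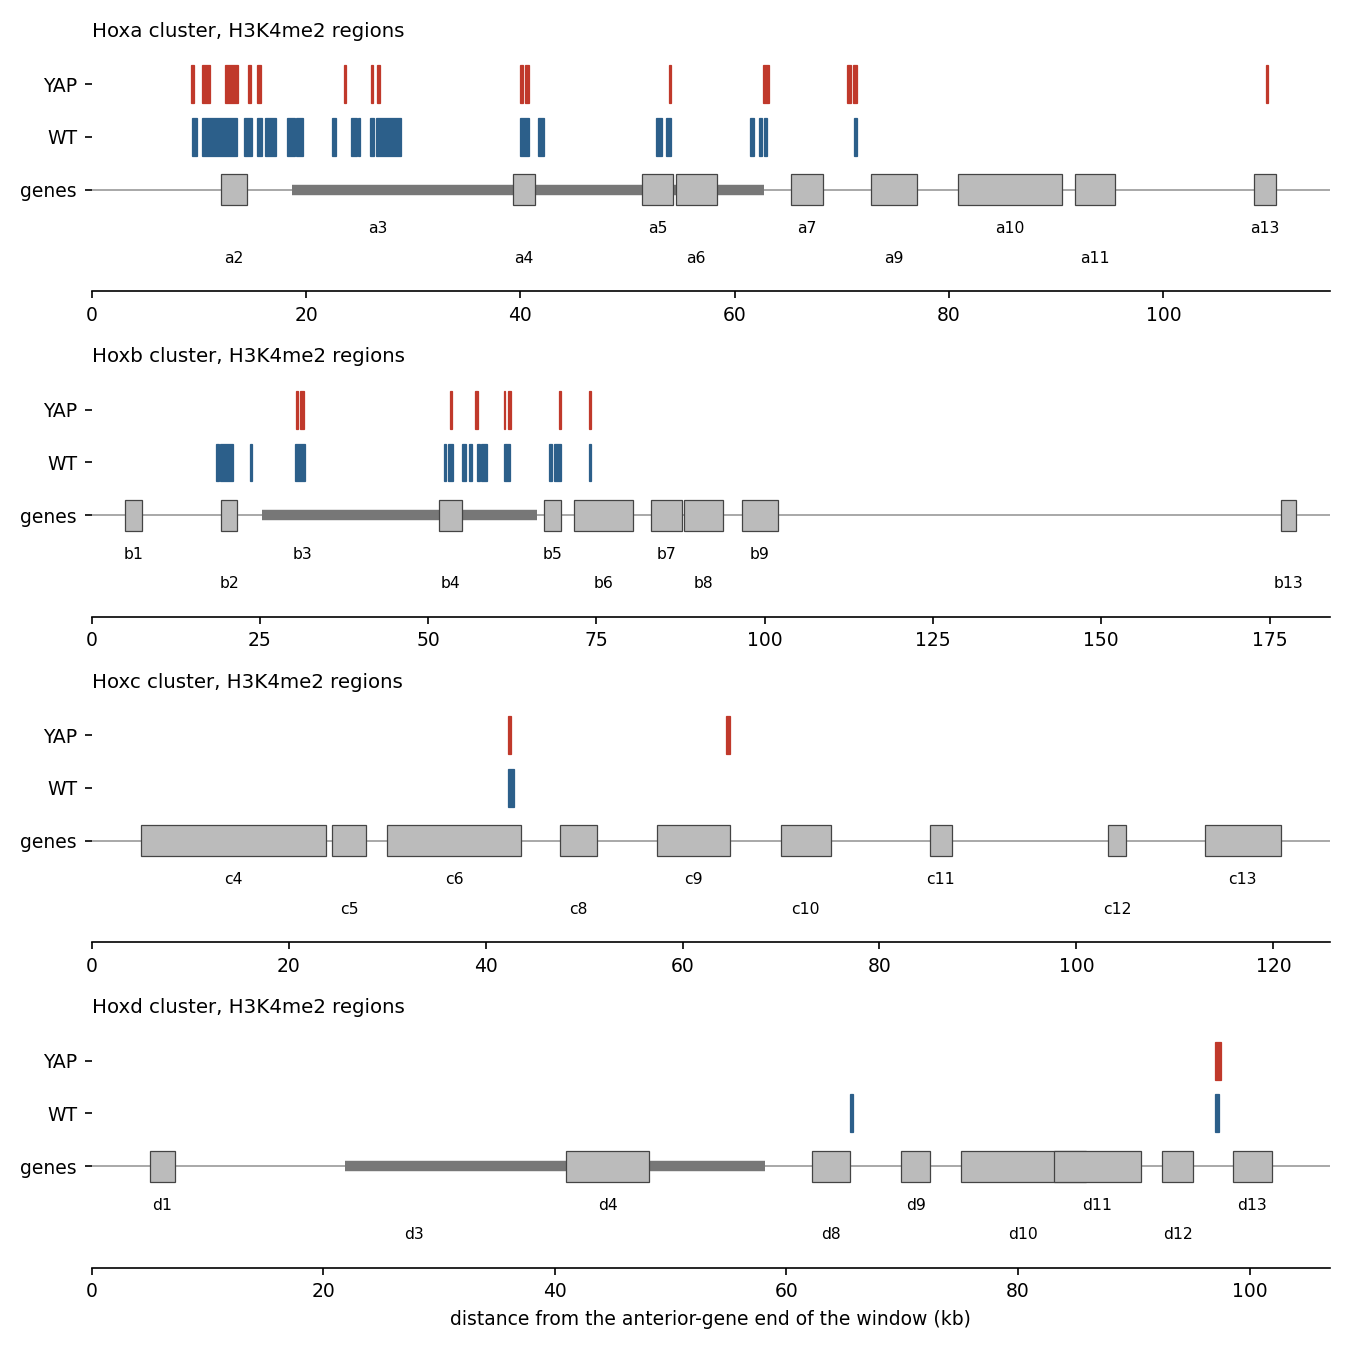
H3K4me2 regions along the 4 Hox windows, with distance in kb from the end of the window with the anterior genes on the horizontal axis and, from top to bottom of each panel, the YAP regions, the WT regions and Hox genes, labelled by cluster letter and number. The WT row of Hoxa and Hoxb holds longer and more regions (20 and 15) than the YAP row (15 and 8), while Hoxc and Hoxd hold 3 regions each over both genotypes.

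Set beside 100 kb tiles of the genome, both changed clusters were at the low end. The measure was the log2 ratio of covered bases, YAP over WT, with 500 bases added to both, and it was -1.21 for Hoxa, -1.60 for Hoxb, -0.02 for Hoxc and -0.19 for Hoxd. Of 9917 tiles of 100 kb that hold a protein-coding gene and H3K4me2 in either list, 9.79% had at least 1.5-fold fewer bases in YAP and 9.91% at least 1.5-fold more. A lower ratio than that of Hoxa was found in 2.28% of tiles, than that of Hoxb in 0.998%, than that of Hoxd in 34.0% and than that of Hoxc in 55.5%. Large ratios in either direction are commoner where a tile has few regions. Among the 1297 tiles with at least 20 regions over both lists, a limit set after the data were seen, 14 were as low as Hoxa and 3 as low as Hoxb. The Hoxb window, 183.9 kb with 8 regions in YAP and 15 in WT, is longer and less dense than these tiles. The tiles were not matched to the Hox windows for score. In this dense set 7.09% of tiles had at least 1.5-fold fewer bases and 1.62% at least 1.5-fold more. By coverage, the Hoxa window stood above 78.5% of tiles in YAP and above 95.1% in WT. The Hoxb window stood above 56.5% in YAP and above 79.0% in WT.

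**Figure D2:**
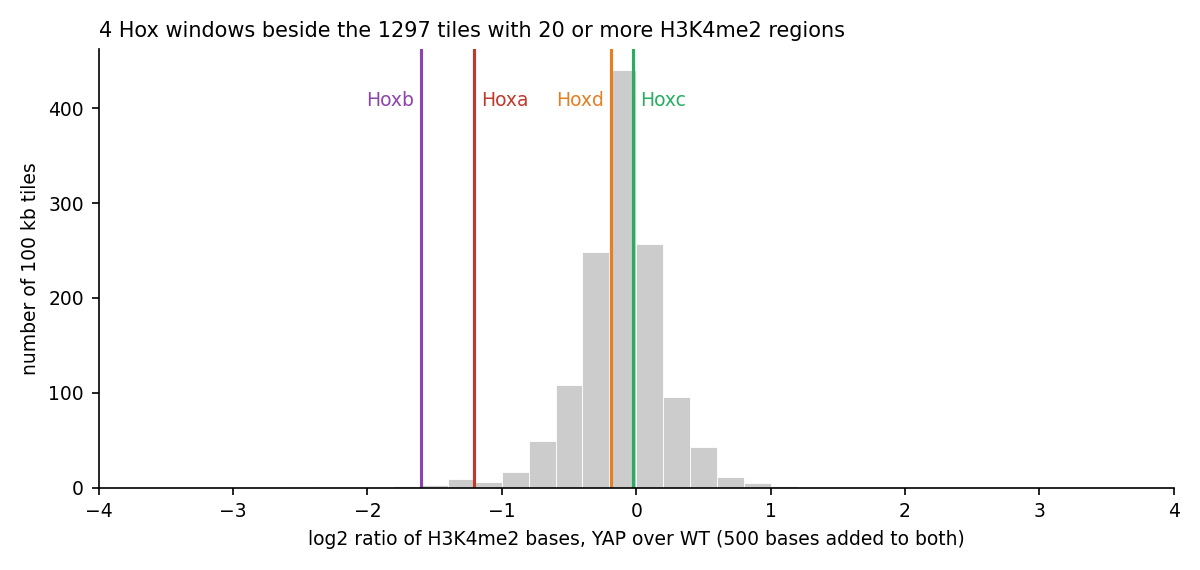
Number of 100 kb tiles by their log2 ratio of H3K4me2 bases, YAP over WT with 500 bases added to both, for the 1297 tiles with at least 20 regions over both lists; coloured lines mark the 4 Hox windows. Hoxb at -1.60 and Hoxa at -1.21 sit in the left tail, and Hoxd at -0.19 and Hoxc at -0.02 near the middle, although these last windows hold 3 regions each. The Hoxb window is also longer and less dense in regions than these tiles.

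The regions of the clusters were short and of modest score. The authors' score, which equalled 10 times the deposited −log10 p-value without decimals in every histone region, ranged from 26 to 145 with a median of 54.5 in the YAP regions and from 30 to 134 with a median of 61.5 in the WT regions. The medians of the whole lists were 90 in YAP and 86 in WT, and 2 of 26 YAP and 9 of 38 WT Hox regions were at or above the median of their own list. Median width was 350 bp in YAP and 481.5 bp in WT, against 575 bp and 571 bp over the whole lists. The longest Hox regions were 1200 bp in YAP and 3309 bp in WT, both at Hoxa2. The highest-scoring region of either list lay at the same place, between Hoxa7 and Hoxa9, at chr6:52221417-52221772 with score 145 in YAP and chr6:52221501-52221755 with score 134 in WT.

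**Figure D3:**
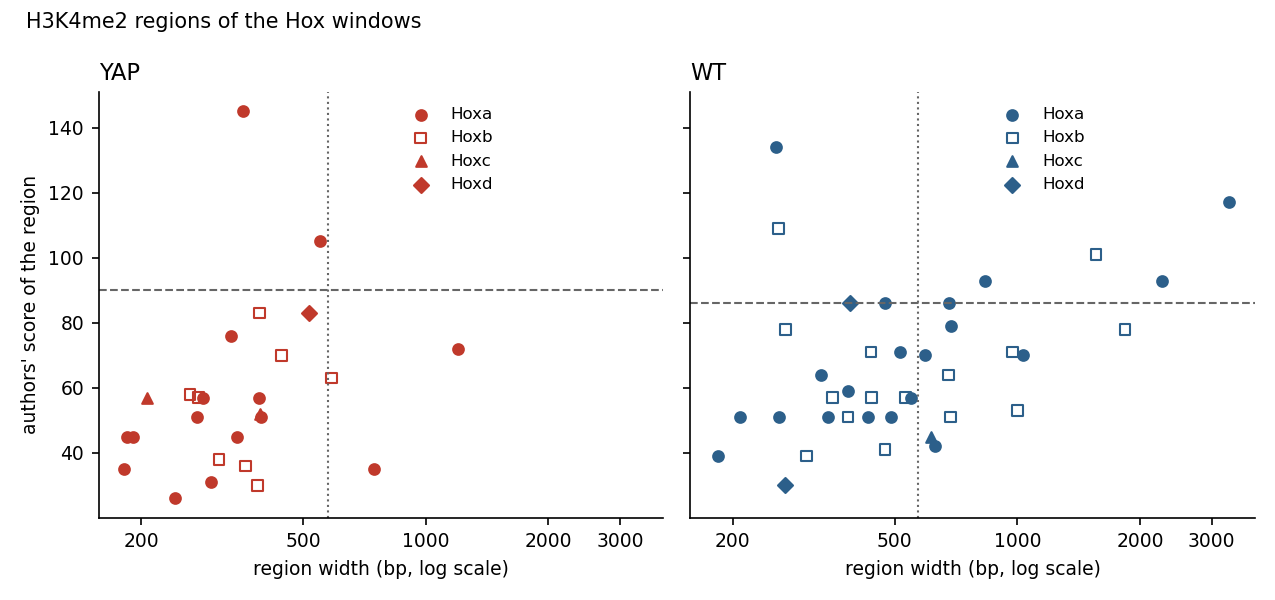
Width in bp (log scale) and authors' score of each H3K4me2 region in the Hox windows, YAP left and WT right, with symbols for the cluster; dashed and dotted lines are the median score and median width of the whole list of that genotype. Of the 26 YAP regions 24 and of the 38 WT regions 29 lie below the median score, and regions wider than 1200 bp occur in the WT panel only.

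Most bases in the YAP list of these clusters were also in the WT list, while most WT bases were missing from the YAP list. The lists shared 7.74 kb, 2.37 kb were in YAP alone and 18.1 kb in WT alone. Thus 76.6% of the YAP bases were also in WT (82.4% over the genome), and 29.9% of the WT bases were also in YAP (77.3% over the genome). Regions of low score are found in both lists less often throughout the genome. Restricted to regions that score no higher than 145, the genome shares were 64.2% of YAP bases and 57.6% of WT bases. Counted as regions with at least 1 bp in common, 22 of 26 YAP regions were found in WT (84.6%, Wilson 95% interval 66.5% to 93.9%), against 67.8% of YAP regions of that score over the genome. In the other direction, 19 of 38 WT regions were found in YAP (50.0%, 34.8% to 65.2%), against 61.8% of WT regions of that score. Beside regions of that score, the WT share was thus lower by bases (29.9% against 57.6%) than by regions (50.0% against 61.8%). The intervals treat neighbouring regions as independent, cover counting only and are no test. The 4 YAP regions without a WT counterpart were 3 in Hoxa and 1 in Hoxc, and the 19 WT regions without a YAP counterpart were 10 in Hoxa, 8 in Hoxb and 1 in Hoxd.

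For each gene, H3K4me2 bases were summed over the gene and 5 kb on both sides, and a difference was called when bases plus 500 differed at least 1.5-fold. Of the 39 genes, 21 had H3K4me2 in either list (53.8%, against 68.1% of all protein-coding genes), 17 in YAP and 19 in WT. Fewer bases in YAP were called for 15 of the 21, where 7.25% of 14912 protein-coding genes were called in that direction. With 2000 bases added in place of 500, 5 of the 21 were called fewer, and without the 5 kb flank 7 of 14. Shares over all genes are given only for 500 bases and the 5 kb flank, so these 2 counts have no background beside them. More bases in YAP were called for 2, where 7.71% of all genes were called. Among 2605 genes whose highest score was no higher than 145, 17.4% were called fewer and 26.9% more. The median log2 ratio was -0.70 over the 21 genes, against -0.06 over all genes and 0.11 over the genes of that score. Of the 15 genes with bases in both lists, 11 were called fewer and 1 more, where 5.99% and 5% of 14032 such genes were called, with a median of -0.83 against -0.07. Neighbouring Hox genes lie within 5 kb of each other and share regions, so these counts are not independent. The 18 genes with no region in either list were Hoxa10, Hoxa11, Hoxb1, Hoxb7, Hoxb8, Hoxb9, Hoxb13, Hoxc4, Hoxc5, Hoxc10 to Hoxc13, Hoxd1, Hoxd3, Hoxd4, Hoxd10 and Hoxd11.

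**Figure D4:**
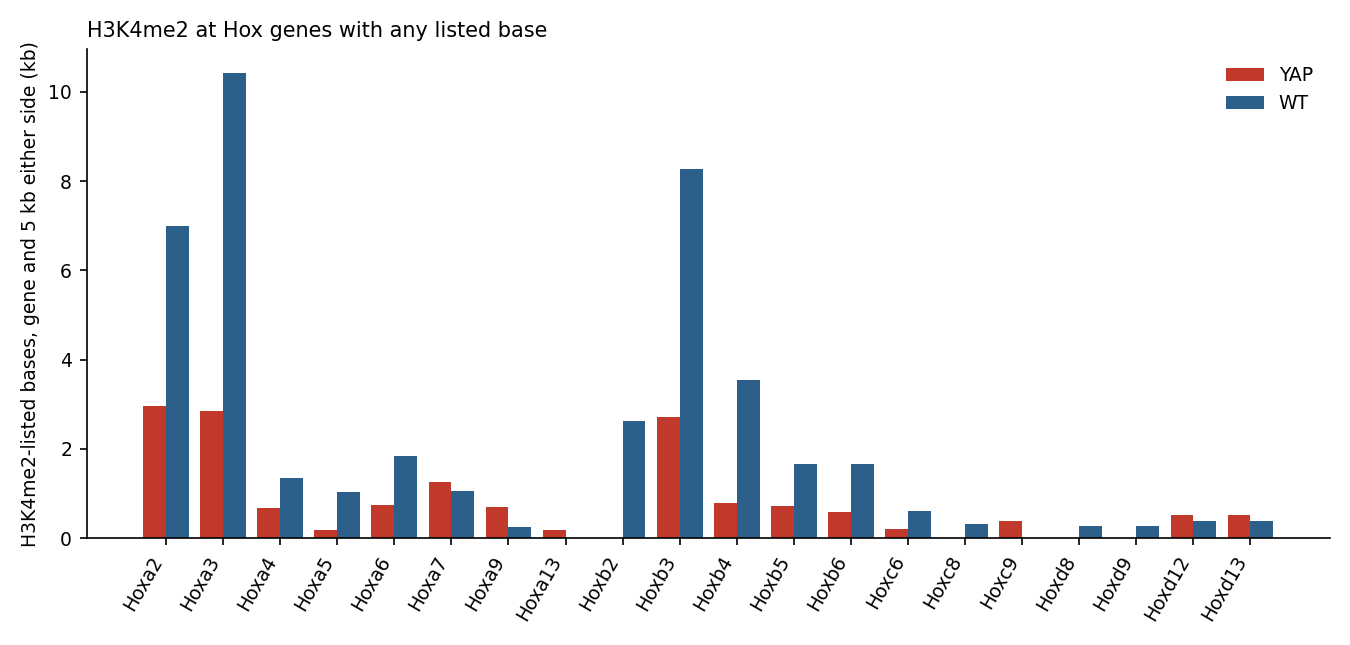
H3K4me2 bases in kb within 5 kb of the Hox genes drawn, with the YAP bar left of the WT bar for each gene. WT exceeds YAP at Hoxa2 to Hoxa6, at Hoxb2 to Hoxb6 and at Hoxc6, Hoxc8, Hoxd8 and Hoxd9. The widest margin is at Hoxa3 (2.84 kb in YAP and 10.4 kb in WT). YAP exceeds WT at Hoxa7, Hoxa9, Hoxa13, Hoxc9, Hoxd12 and Hoxd13.

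The anterior genes, those of paralog groups 1 to 4, carried most of the mark. These genes pattern the hindbrain and neck region, and 7 of the 12 had H3K4me2 in either list. All 7 were called fewer in YAP and none more, where 7.25% of all genes with H3K4me2 were called fewer and 7.71% more. Among genes whose highest score was no higher than 145, the shares were 17.4% and 26.9%. Hoxa2, which gives the second pharyngeal arch its identity, had 2.97 kb in YAP and 6.99 kb in WT. Hoxa3, needed for thymus and parathyroid formation, had 2.84 kb in YAP and 10.4 kb in WT, a log2 ratio of -1.71, the lowest of the genes with bases in both lists. Its annotation spans much of the Hoxa cluster, so its value includes regions at Hoxa4 to Hoxa6. Hoxa4 had 0.674 kb in YAP and 1.35 kb in WT.

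At Hoxa2 the WT list had 1 region of 3309 bp with score 117, chr6:52160634-52163942, across Hotairm1 and Hoxa2. In its place the YAP list had 1 region of 745 bp, chr6:52160631-52161375, and 1 of 1200 bp, chr6:52162807-52164006, with scores 35 and 72. The mark was thus listed at both ends of this stretch in YAP, with a gap between. Next to it, 3 WT regions between chr6:52166536 and chr6:52170071, at Hoxaas2 and the distal end of Hoxa3, had no YAP counterpart. Inside Hoxa3 a WT region of 2259 bp, chr6:52176941-52179199, met a YAP region of 274 bp, chr6:52176997-52177270. The window was also divided into stretches, drawn after the map was seen. From the lower end of the window to Hoxaas2 there were 2.97 kb in YAP and 6.61 kb in WT, in the body of Hoxa3 below Hoxa4 0.698 kb and 4.37 kb, and from Hoxa4 to the Hoxa3 start 1.41 kb and 3.19 kb, each with YAP before WT. From Hoxa7 to Hoxa13 the order was the other way, with 0.885 kb in YAP and 0.255 kb in WT.

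In the Hoxb cluster the mark ran from Hoxb6 to just past Hoxb2 in WT, over 55.7 kb, and from Hoxb6 into Hoxb3 in YAP, over 43.8 kb. Hoxb2, a hindbrain segment gene, had no listed base in YAP and 2.63 kb in WT, in 3 regions of which the longest was chr11:96352290-96354127 (1838 bp, score 78). Hoxb3 had 2.71 kb in YAP and 8.28 kb in WT, and Hoxb4, known for the expansion of blood stem cells, 0.777 kb in YAP and 3.55 kb in WT. A WT region of 1559 bp, chr11:96341539-96343097, was met by YAP regions of 588 bp and 361 bp. The WT regions at the Hoxb4 promoter printed above, chr11:96317598-96318274, and at Mir10a, chr11:96316734-96317206, had no YAP counterpart. From Hoxb7 to Hoxb13, 100.8 kb of the window, neither list had a region.

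The central genes, paralog groups 5 to 8, act mainly in the trunk. Of 11 genes 8 had H3K4me2, 7 were called fewer in YAP and none more. Over all genes with H3K4me2 7.25% were called fewer and 7.71% more, and over those scoring no higher than 145, 17.4% and 26.9%. Hoxa5, which acts in lung and gut development, had 0.191 kb in YAP and 1.04 kb in WT, and Hoxa6 had 0.740 kb in YAP and 1.85 kb in WT. Hoxb5 had 0.713 kb in YAP and 1.65 kb in WT, and Hoxb6 0.588 kb in YAP and 1.65 kb in WT. Hoxa7 was the exception, with 1.25 kb in YAP and 1.07 kb in WT, under the 1.5-fold limit. Hoxa6 and Hoxa7 had no region on the gene body in either list, so their values come from regions within the 5 kb flanks. Hoxb5 and Hoxb6 rest on the same 3 WT regions. Of the 11 central genes, 4 in YAP and 5 in WT had a region on the gene body. Of the other called genes, Hoxc6 had 0.207 kb in YAP and 0.615 kb in WT, and Hoxc8 and Hoxd8 had no listed base in YAP and 0.312 kb and 0.269 kb in WT. Hoxc6 and Hoxc8 share 1 WT region, chr15:102998964-102999578. The 5 kb flank of Hoxc8 ends inside it, and an overlapping YAP region, chr15:102999320-102999526, begins just past that flank. The Hoxc8 call thus depends on where the flank ends. Hoxd8 rests on another region, chr2:74704428-74704696, which had a score of 30, near the lower end of the list.

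The posterior genes, paralog groups 9 to 13, pattern the lumbar and sacral regions, the limbs and the genital tract. Of 16 genes 6 had H3K4me2, 1 was called fewer in YAP and 2 more. These counts are near the shares among genes scoring no higher than 145, of which 17.4% were called fewer and 26.9% more. Hoxa9, a gene also known from leukaemia, had 0.70 kb in YAP and 0.255 kb in WT, a log2 ratio of 0.67, from the regions between Hoxa7 and Hoxa9. Hoxc9 had 0.392 kb in YAP, in 1 region at its start (chr15:102977015-102977406, score 52), and was listed at 0 in WT. Hoxa13, needed for digits and the genital tract, had 0.185 kb in YAP, in 1 region (chr6:52259970-52260154, score 45), and was listed at 0 in WT, which left it under the limit. Hoxd12 and Hoxd13 shared 1 region between them, 0.516 kb in YAP and 0.388 kb in WT, under the limit. Hoxd9, the 1 posterior gene called fewer, had no base in YAP and 0.269 kb in WT, from the region at the Hoxd8 start. The posterior values are each under 1 kb, below those of Hoxa2, Hoxa3 and Hoxb3.

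H3K4me2 within 1 kb of a start was listed for 8 Hox genes in YAP and 10 in WT. The starts of 6 genes, among them Hoxa2, Hoxa3, Hoxa4, Hoxa5 and Hoxb5, had it in both lists, those of Hoxa13 and Hoxc9 in YAP alone, and those of Hoxb2, Hoxb4, Hoxc6 and Hoxd8 in WT alone. The other 27 starts had none in either list. Over all 17491 genes with a listed start, 59.6% had the mark there in YAP, 58.7% in WT, 2.09% in YAP alone and 1.22% in WT alone. For 17 Hox genes no start was listed, and the gene boundary on the strand of the cluster was used. Hoxa4, Hoxb2, Hoxb5, Hoxc6 and Hoxc9 are among them. The Hox counts thus include starts of a kind that the 17491 genes leave out. At the Hoxa3 start the YAP list had 1 region (chr6:52213027-52213575, 549 bp, score 105). The WT list had 3 shorter ones within 1 kb of it, of which the nearest was chr6:52213082-52213340 (259 bp, score 51).

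Of 27 long non-coding RNA genes in the windows, 7 overlapped H3K4me2 in YAP and 9 in WT, and the 7 were among the 9. No share over all long non-coding RNA genes is given beside these counts. Hotairm1, a non-coding gene of the Hoxa cluster known from myeloid cells, had 1.04 kb in YAP and 1.82 kb in WT. Hoxaas2 had 0.395 kb in YAP and 2.19 kb in WT, Hoxaas3 0.740 kb in YAP and 1.85 kb in WT, and Hoxb5os 0.588 kb in YAP and 1.65 kb in WT. Hoxb3os had no listed base in YAP and 1.52 kb in WT. Hottip, Hotair and Haglr, non-coding genes of Hoxa, Hoxc and Hoxd, had no region in either list. Of the 6 miRNA genes 0 overlapped a region in YAP and 1, Mir10a, in WT, where 42 bases of its hairpin and 21 of its 23 mature bases were covered.

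The LSD1 and H3K4me1 lists had no region in any Hox window in either genotype, so all 39 genes were listed at 0 for both. These lists are much shorter than those of H3K4me2, with 2949 LSD1 regions in YAP and 1500 in WT, and 6274 H3K4me1 regions in YAP and 5905 in WT. Over all protein-coding genes, 11.1% had an LSD1 region within 5 kb in YAP and 5.9% in WT, and 11.3% had an H3K4me1 region in YAP and 9.5% in WT. Among the 1297 tiles dense in H3K4me2, 54.6% held an LSD1 region in either genotype and 58.4% an H3K4me1 region. The nearest LSD1 region lay 454 kb from the outermost Hoxa gene in YAP and 1382 kb in WT. From the outermost Hoxb gene it lay 409 kb away in YAP and 370 kb in WT. For Hoxc these distances were 403 kb in YAP and 53.6 kb in WT, and for Hoxd 89.1 kb in YAP and 89.0 kb in WT. The fewer H3K4me2 bases of Hoxa and Hoxb thus occurred without a listed LSD1 region in YAP inside either window. Of H3K4me2 regions that score no higher than 145, 2.35% overlapped LSD1 in YAP and 1.16% in WT, so few would be found among 26 and 38 regions. Regions below the authors' threshold are not listed, and no region in a list does not show that the protein or the mark was absent.

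The windows stood apart from the H3K4me2 regions around them. Distances were measured from the outermost Hox gene of each cluster. The nearest H3K4me2 region below the Hoxa window lay 140 kb away in YAP and 140 kb in WT, and above it 340 kb in YAP and 339 kb in WT. Around Hoxb these distances were 117 kb in both genotypes below and 227 kb in YAP and 211 kb in WT above. Around Hoxc they were 198 kb in both below and 62.6 kb in YAP and 53.4 kb in WT above. Around Hoxd they were 87.2 kb in YAP and 86.8 kb in WT below, and 59.3 kb in YAP and 59.2 kb in WT above. The marked stretches of Hoxa and Hoxb were thus separated from other listed H3K4me2 regions by these distances in both genotypes. No spacing of regions over the genome is given beside them.

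Genes that work with or on the Hox genes were mostly under the 1.5-fold limit, as were most genes. Over all protein-coding genes with H3K4me2 in either list, 7.25% were called fewer in YAP and 7.71% more. Of the 9 TALE cofactors, homeodomain partners of Hox proteins such as Pbx and Meis, all had H3K4me2, none was called fewer and 1 was called more, Meis3 with 0.686 kb in YAP and 0.232 kb in WT; their median log2 ratio was 0.03. Of the 10 Trithorax genes and the 14 Polycomb genes all had the mark and none was called in either direction, with medians of -0.09 and -0.05. Of the 14 genes of retinoid signalling, which switches on anterior Hox genes in the embryo, 11 had the mark, 2 were called fewer and 1 more, with a median of -0.14. The receptor gene Rxra had 19.9 kb in YAP and 30.4 kb in WT, and Rxrg had 0.939 kb in YAP and 1.78 kb in WT. Cyp26b1, which degrades retinoic acid, had 5.19 kb in YAP and 2.97 kb in WT. Of 8 ParaHox and Hox-linked homeobox genes, Cdx1, Cdx4, Evx1, Evx2, Gsx2 and Pdx1 had no region in either list, and the other 2 were under the limit.

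Markers of other liver cell types also differed between the lists. Over all protein-coding genes with H3K4me2 in either list, 7.25% were called fewer in YAP and 7.71% more. Among those whose highest score was no higher than 145, the shares were 17.4% and 26.9%. Of 10 stellate cell and fibroblast markers, 6 had H3K4me2, 4 were called fewer in YAP and none more, and their summed bases were 2.36 kb in YAP and 10.4 kb in WT. Reln had 1.52 kb in YAP and 6.38 kb in WT, and Dcn, Hand2 and Col3a1 were listed at 0 in YAP, with 1.38 kb, 1.30 kb and 0.945 kb in WT. The other 2 were higher in YAP but under the limit. Lrat had 0.629 kb in YAP and 0.406 kb in WT, and Col1a1 had 0.212 kb in YAP and was listed at 0 in WT. The markers Pdgfrb, Des, Lum and Ngfr were at 0 in both lists, and in all 7 of the 10 were at 0 in YAP and 5 in WT. Of 10 endothelial markers 3 were called fewer and 3 more, with sums of 11.5 kb in YAP and 16.8 kb in WT, 2 at 0 in YAP and 3 in WT, and Lyve1 at 0 in both. Of 10 leukocyte markers 6 were called more and none fewer, with sums of 16.3 kb in YAP and 5.15 kb in WT, 3 at 0 in YAP and 8 in WT, with Cd3e and Itgam among those at 0 in both. Of 8 biliary markers 2 were called more and none fewer, with sums of 19.4 kb in YAP and 13.4 kb in WT, 3 at 0 in each list, namely Cftr, Krt19 and Krt7. Of 10 hepatocyte markers 3 were called fewer and none more, with sums of 77.7 kb in YAP and 103 kb in WT. These lists moved in the same samples as the Hox clusters, and their part in the result was not tested.

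**Figure D5:**
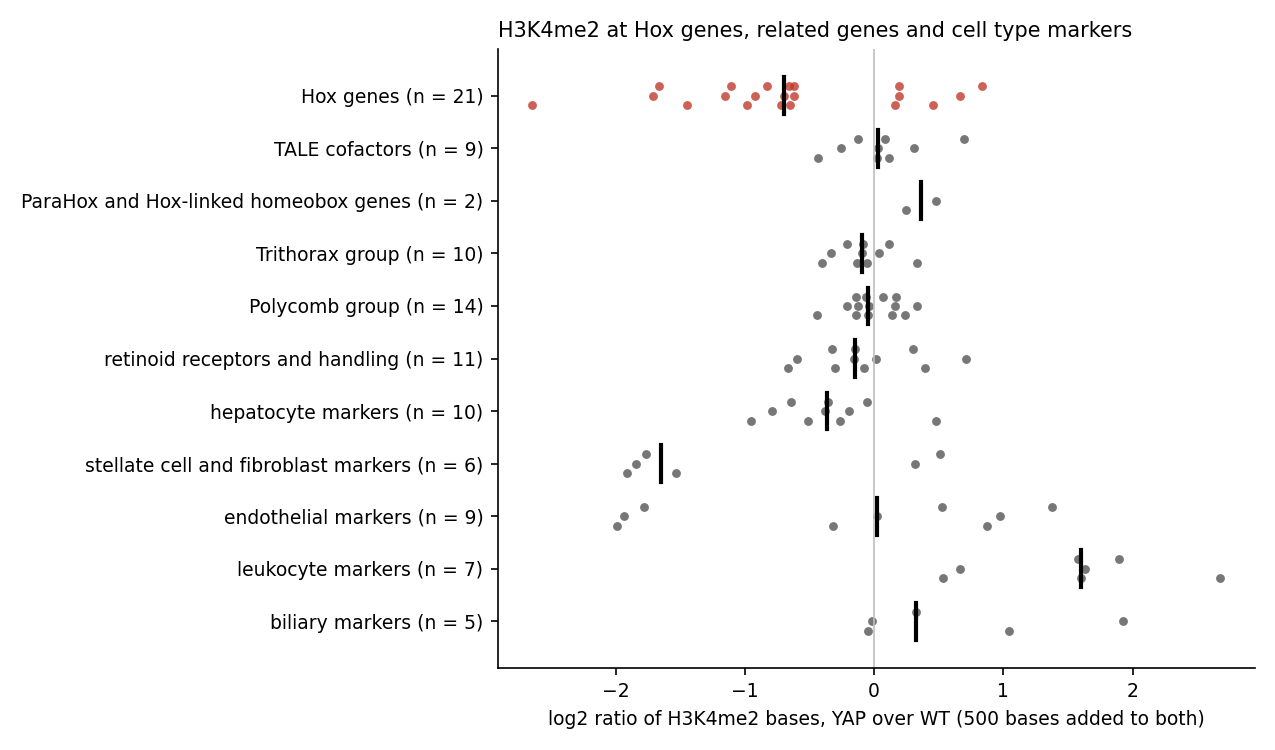
Log2 ratio of H3K4me2 bases, YAP over WT with 500 bases added to both, of each gene with H3K4me2 (points) and the median of each list (bars) for the Hox genes, the related lists and the cell type markers. The Hox median of -0.70 lies between those of the stellate cell and fibroblast markers (-1.65) and the hepatocyte markers (-0.37), the Trithorax, Polycomb and TALE medians lie near 0, and the leukocyte median is at 1.6.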

How the data were processed

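Chromatin of mouse livers was digested with micrococcal nuclease, immunoprecipitated and amplified by 15 cycles of PCR, per the labels' protocols, so listed regions can follow nucleosome positions. The submitters' processing notes name mm10 as build and, with no role or order, deepTools 3.3.0, bedtools 2.26.0, Picard 1.126, SAMtools 1.7, Trimmomatic 0.39 and BWA. Which peak caller and threshold were used, and how the replicates were combined, is not given in the sources used here. Each list has a score, a signal column and −log10 p-value columns deposited by the authors. The score and signal were ranked only within a list. The cutoff of 145, the highest Hox score of either list, was applied to both H3K4me2 lists. Scores of YAP and WT regions printed side by side come from lists of unknown read depth. The 2 LSD1 columns with placeholder values were not used.

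Overlapping LSD1 regions were merged within a list, which left 2949 of 3353 in YAP and 1500 of 1718 in WT. Gene positions, promoters and miRNAs came from RefSeq tables of GRCm38.p6. Strand was listed for 22 Hox genes and the others took that of their cluster. Covered bases, overlaps of at least 1 bp and tiles were computed with Python 3.11.15, numpy 2.4.6 and pandas 2.3.3. They were tested on simulated regions with bedtools 2.31.1. The log2 ratio adds 500 bases to each list. All comparisons are descriptions, since 1 list per group allows no test. Some items are counted but not reported here. The members and gene lists were chosen with earlier results of these data known. Of each related list, up to 4 genes with the largest absolute log2 ratio could be named. Scipy 1.17.1 gave the Wilson intervals and matplotlib 3.10.9 drew the plots.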

Additional observations from a re-analysis of the deposited data

How the results depend on the processing

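No paired analysis was possible because each list holds both replicates of its group together, and no replicate could be left out for the same reason. Of 70 alternative values, 51 stayed within the limits set for them, 19 moved and 0 reversed. Reversal could be recorded only for log2 ratios of at least 1.5-fold in the main setting, so not for counts, shares, Hoxc or Hoxd. The cluster ratios without a flank or with 50 kb on both sides equalled the main values, since no H3K4me2 region lay there. With 0 LSD1 and 0 H3K4me1 regions in the windows, a subset of either list could only give 0. Such values are counted in the 51. Hoxa and Hoxb kept fewer H3K4me2 bases in YAP under every alternative run, with log2 ratios from -2.56 to -1.04 for Hoxa and from -2.21 to -1.28 for Hoxb, while Hoxc ran from -0.03 to 0. Hoxd ran from -0.83 to 0.19, and it was above 0 when both lists were cut to an equal number of regions. With the higher-scoring 50% of each list, the ratios were -2.56 for Hoxa, -2.21 for Hoxb and -0.83 for Hoxd. The genes called fewer were 5 of 21 with 2000 bases added in place of 500, 7 of 14 without the 5 kb flank and 7 of 10 with the higher-scoring 50%, against 15 of 21, and those called more were 0 of 21 with 2000 bases and 1 of 14 without the flank. No share over all genes is given under these alternatives, so the Hox counts cannot be set against a background there. Starts marked in both lists numbered 0 with the higher-scoring 50% and 13 within 5 kb, those in YAP alone 1 with the higher-scoring 50%, and those in WT alone 2 within 5 kb. YAP regions found in WT were 26.9% at a reciprocal overlap of 50% and 50.0% in the higher-scoring 50%, where 2 YAP regions were left. WT regions found in YAP were 18.4% at a reciprocal overlap of 50%, 76.3% within 1 kb and 11.1% in the higher-scoring 50%. Among tiles with at least 20 regions, added after the data were seen, 1.08% were lower than Hoxa and 0.231% lower than Hoxb. The Hoxb window is longer and less dense in regions than those tiles. Most Hox regions fall below the median score of their list, so the counts above that limit rest on few regions, and the causes were not tested. Unknown read depth limits how far a region missing from a list can be read.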
